A study of Mus musculus with 4 samples.

Results

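Potassium channels and the hyperpolarization-activated cyclic nucleotide-gated (HCN) channels were examined here across the cells of the mouse ovary. Members were all genes whose symbol had the form Kcn plus letters and a number, or Hcn plus a number, and that had at least 100 unique molecular identifiers (UMIs, each standing for 1 captured RNA molecule) in the 4 count matrices together. Of 32285 genes in the matrices, 102 symbols had this form and 69 reached the minimum, which left 33 below it. Kcnh5 with 102 and Kcng4 with 122 UMIs lay just inside the minimum, and Kcnmb3 with 99 and Kcnk4 with 94 UMIs just outside. The rule used only the symbol and the total over all libraries, so differences between cell classes and between conditions were not part of it.

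Whole ovaries of 8-week-old female littermates were dissociated and profiled by droplet-based single-cell RNA sequencing. The Fosl2F/F group (2 libraries) carried loxP-flanked Fosl2 alleles without Cre, and the Fosl2cKO group (2 libraries) carried the same alleles with a Cre transgene under the Cyp19a1 (aromatase) promoter, so that recombination was directed to granulosa cells, with the luteal cells that form from them, and the other cell classes were not targeted. Both groups shared the floxed alleles, and no group with Cre alone was included. The study's text counts as many females as libraries in each group, but the labels do not tie a library to 1 animal, and p-values between conditions measure only the spread between these libraries, which may be technical. Values are given throughout in the order Fosl2F/F library 1, Fosl2F/F library 2, Fosl2cKO library 1 and Fosl2cKO library 2.

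Potassium channels let potassium leave a cell and thereby set its resting potential and end its action potentials. Inward rectifiers (Kcnj) and tandem-pore K2P channels (Kcnk) carry resting current, and voltage-gated channels (Kcna to Kcnd, Kcnh, Kcnq) open on depolarization. Kcnf, Kcng and Kcns subunits, grouped here with the voltage-gated genes, are silent modifiers of Kv2 (Kcnb) channels. Kcnma1, Kcnn and Kcnt channels open with intracellular calcium or sodium. HCN channels pass a mixed sodium and potassium current on hyperpolarization and are bound by cyclic AMP. The Kcnab, Kcne, Kcnip and Kcnmb proteins form no pore and are auxiliary subunits that change the gating or trafficking of pore subunits. In the ovary, granulosa and theca cells respond to gonadotropins through cyclic AMP and calcium, and vascular smooth muscle and pericytes use potassium channels to hold their tone.

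After filtering, 6760 to 19575 cells per library remained, with 104303269 to 111314200 UMIs per library. Fosl2F/F library 2 stood apart, with 28155 barcodes against 8654 to 11045 in the other libraries and a median of 3655 UMIs per cell against 11177 to 12465. From 10 to 38 cell barcodes were shared by any pair of libraries. Fosl2 itself was measured in granulosa-like cells at 161, 167, 167 and 115 CPM, so that the first library labelled Fosl2cKO lay at the level of the Fosl2F/F libraries and only the second lay below them (edgeR quasi-likelihood test, log2 -0.25, SE 0.20, adjusted p = 1 after Benjamini-Hochberg adjustment over all genes). Counting at the 3′ end can include transcripts that lack the floxed exons, so Fosl2 counts bear on recombination only in part. By immunoblot, the study reports depletion of Fosl2 protein in granulosa cells of Fosl2cKO mice, and protein was not measured in these libraries. Libraries are therefore called by their label. Cells were clustered without the channel genes and named from marker lists as 13 "-like" classes and 2 unnamed clusters (cluster 1 and cluster 16, with collagen genes of the stromal list but Enpep and Hhip among their leading genes). The granulosa-like cells were divided further into 6 named states and 2 unnamed clusters. Levels are UMIs of the gene per 1000000 UMIs of that class in that library (CPM). A level in a class sums over its cells, and more cells with the transcript and more transcript per cell were not separated unless a share of cells is given.

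Of the 69 members, 34 reached a mean of 20 CPM over the 4 libraries in at least 1 of the 15 classes, and 35 stayed below 20 CPM in all of them. This level was reached by 12 of 24 voltage-gated genes, 8 of 14 auxiliary subunits, 5 of 8 tandem-pore genes, 5 of 8 calcium- or sodium-activated genes, 2 of 7 inward rectifiers and 1 of 4 antisense or long non-coding transcripts. Oocyte-like cells had the largest number of members at 20 CPM (17), followed by pericyte or smooth muscle-like cells (13) and by granulosa-like, stromal-like and cluster 1 cells (12 each), and endothelial-like cells had the fewest (3). The oocyte-like class held only 209 cells, with a median of 2181 UMIs per cell, and 19 members were at 0 there. Few UMIs can bring a member to 20 CPM in so small a class, so its rank does not show a broader set of channels. In exactly 1 class 20 CPM was reached by 8 members. Kcnq1ot1, the antisense transcript of the imprinted Kcnq1 locus, was the 1 member at 20 CPM in every class.

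**Figure D1:**
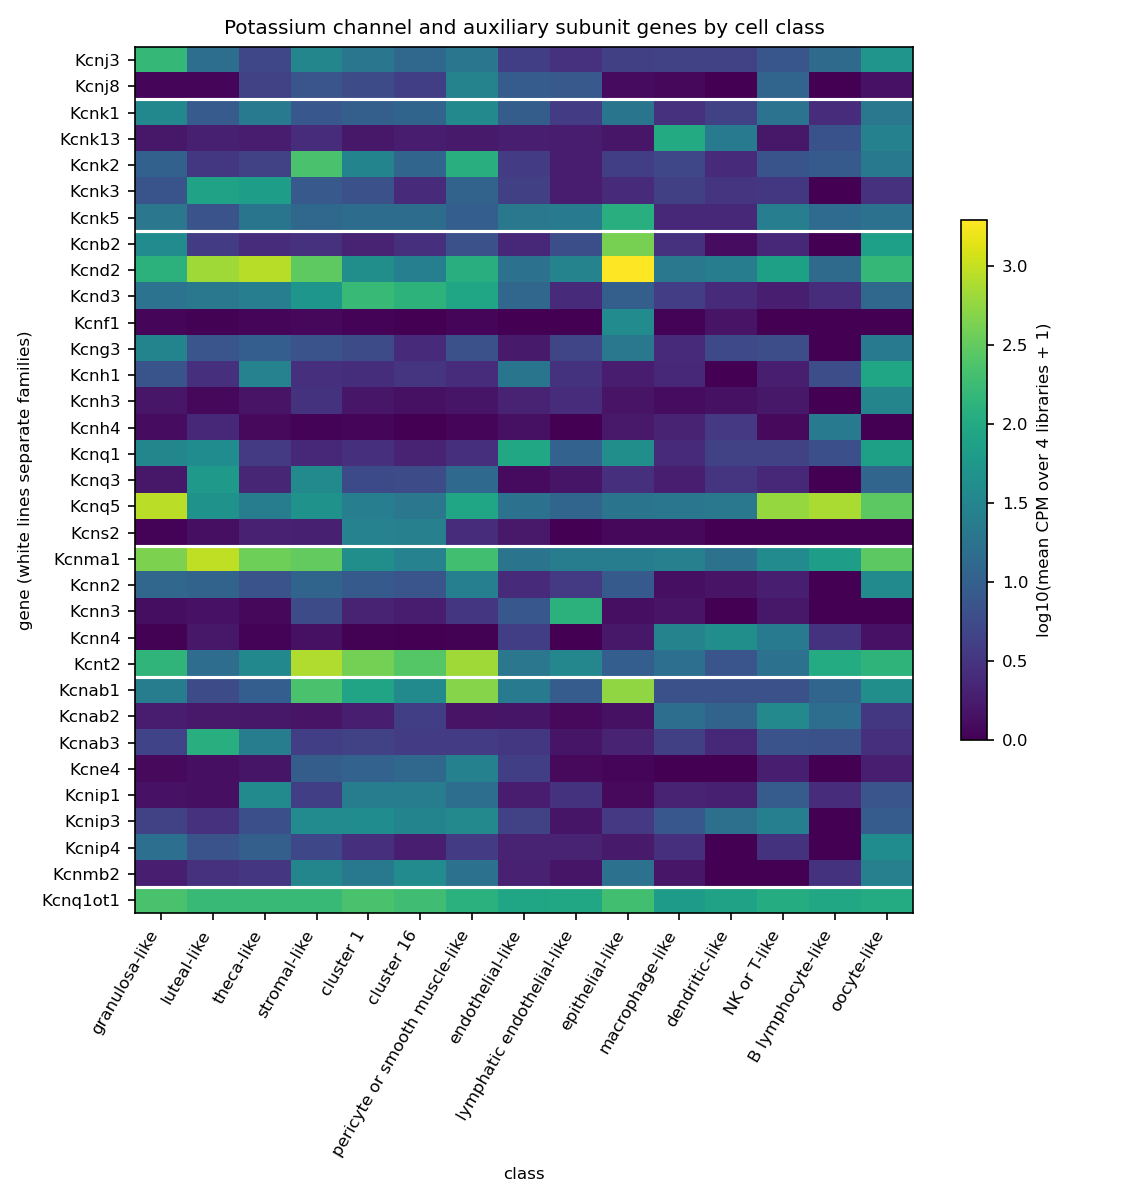
Mean level of the potassium channel and auxiliary subunit genes that reached 20 CPM in at least 1 class, as log10(mean CPM over 4 libraries + 1) by colour, with genes in rows grouped by family (white lines) and the 15 cell classes in columns. Kcnj3 and Kcnq5 were brightest in granulosa-like cells, Kcnn3 in lymphatic endothelial-like cells, and Kcnf1 in epithelial-like cells. For Kcnq5, the library values of granulosa-like and B lymphocyte-like cells overlapped.

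Among the HCN channels, Hcn2 stayed at or below 1.86 CPM, Hcn3 at or below 2.60 CPM and Hcn4 at or below 3.80 CPM as a mean in any class. Hcn4, the isoform of cardiac pacemaker cells, was low in all granulosa states as well. It measured 0.882, 2.64, 2.73 and 2.76 CPM in growing-follicle-like cells and was higher there than in the mean of the other states by the edgeR quasi-likelihood test with library as a block (log2 2.13, SE 0.42, adjusted p = 5.6e-04), a call that finer clustering removed (log2 0.68, adjusted p = 0.087).

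Within the granulosa lineage, Kcne2 (chr16:92292389-92298129, GRCm38), a single-pass subunit that associates with Kcnq1 and HCN channels, was highest by its mean in the mural-like state, the layer of the antral follicle wall that carries the LH receptor and aromatase. It was measured at 41.7, 21.8, 17.6 and 23 CPM in mural-like and at 30.9, 12.4, 4.41 and 5.22 CPM in mitotic-like cells, the latter defined by cell cycle genes. In cumulus-like cells, which surround the oocyte, it was at or near 0, with 0.156, 0.102, 0.257 and 0 CPM. The mural-like and cumulus-like libraries were fully separated, and mural-like cells exceeded the mean of the other states by edgeR (log2 3.41, SE 0.30, adjusted p = 7.9e-10). Granulosa-like exceeded stromal-like cells as well (log2 4.80, SE 0.41, adjusted p = 7.3e-14).

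Kcnq1, the voltage-gated partner of Kcne subunits, had the opposite distribution among the states. It lies at chr7:143106362-143427042, with Kcnq1ot1 on the other strand, and strand-specific counting was not stated, so counts of these 2 transcripts may not be fully separate. Cumulus-like cells had 107, 143, 153 and 151 CPM, mural-like cells 2.90, 2.44, 4.23 and 8.79 CPM and atretic-like cells 3.91, 3.85, 2.11 and 3.63 CPM. Every cumulus-like value was above every mural-like and atretic-like value (cumulus-like against other states, log2 3.64, SE 0.15, adjusted p = 1.9e-18, edgeR). Kcnq1ot1 was measured at 209, 235, 266 and 243 CPM in cumulus-like cells and at 209.8, 209.8, 247 and 229 CPM over all granulosa-like cells (cumulus-like against other states, log2 0.11, SE 0.09, adjusted p = 0.296, edgeR), and did not pass the call. Kcnma1, the pore subunit of the large-conductance calcium-activated channel, was also higher in cumulus-like cells, at 612, 1038, 1221 and 917 CPM, than in mural-like cells, at 186, 303, 402 and 262 CPM (cumulus-like against other states, log2 1.40, SE 0.11, adjusted p = 1.1e-11, edgeR). Kcnb2, a delayed rectifier, was measured at 40.8, 68.6, 93 and 75.9 CPM in cumulus-like cells. It was called higher there (log2 1.19, SE 0.17, adjusted p = 4.5e-07, edgeR), and without Fosl2cKO library 2 the difference fell under the call's minimum of 1, to 0.93.

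Atretic-like cells, whose markers belong to follicles undergoing degeneration, were the highest of the granulosa states in the M-current channel Kcnq5 and in the sodium-activated channel Kcnt2. Kcnq5 (chr1:21398403-21961942) measured 2053, 2435, 2721 and 2690.0 CPM in atretic-like cells and 335, 309.9, 107 and 398 CPM in cumulus-like cells, with growing-follicle-like cells between them at 1042, 789, 639 and 1502 CPM. The atretic-like values did not overlap with either (atretic-like against other states, log2 2.09, SE 0.17, adjusted p = 3.8e-11, edgeR). After each cell was thinned to 2000 UMIs, 90.0% of atretic-like cells held at least 1 Kcnq5 UMI, against 2.38% of lymphatic endothelial-like cells, the class with the lowest share. These shares do not compare atretic-like cells with the other granulosa states. Kcnt2 was measured at 295, 362, 206 and 334 CPM in atretic-like cells against 78.1, 78.6, 80.4 and 183 CPM in mural-like cells (log2 1.57, SE 0.12, adjusted p = 3.5e-11, edgeR). All 4 atretic-like values of Kcnt2 exceeded all mural-like values.

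Granulosa cluster 8 (331 cells), shallow with a median of 3468 UMIs per cell and with Asb4 of the theca list among its leading genes, had Kcnn2, a small-conductance calcium-activated channel, at 33, 140.2, 55.7 and 117 CPM and Kcnip3 at 16.5, 24.6, 21.7 and 57.9 CPM. The next state for Kcnn2 was cumulus-like at a mean of 14.4 CPM, and the part of cells of other classes in this cluster was not tested. Kcnk1, a weakly rectifying tandem-pore channel, was called higher in growing-follicle-like cells (log2 1.24, SE 0.28, adjusted p = 0.0017, edgeR). Its values there were 153, 22.1, 16.4 and 86.8 CPM, with 1 high and 1 low library in each condition, and without Fosl2F/F library 1 the call was lost (lowest value without 1 library, log2 0.70).

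**Figure D2:**
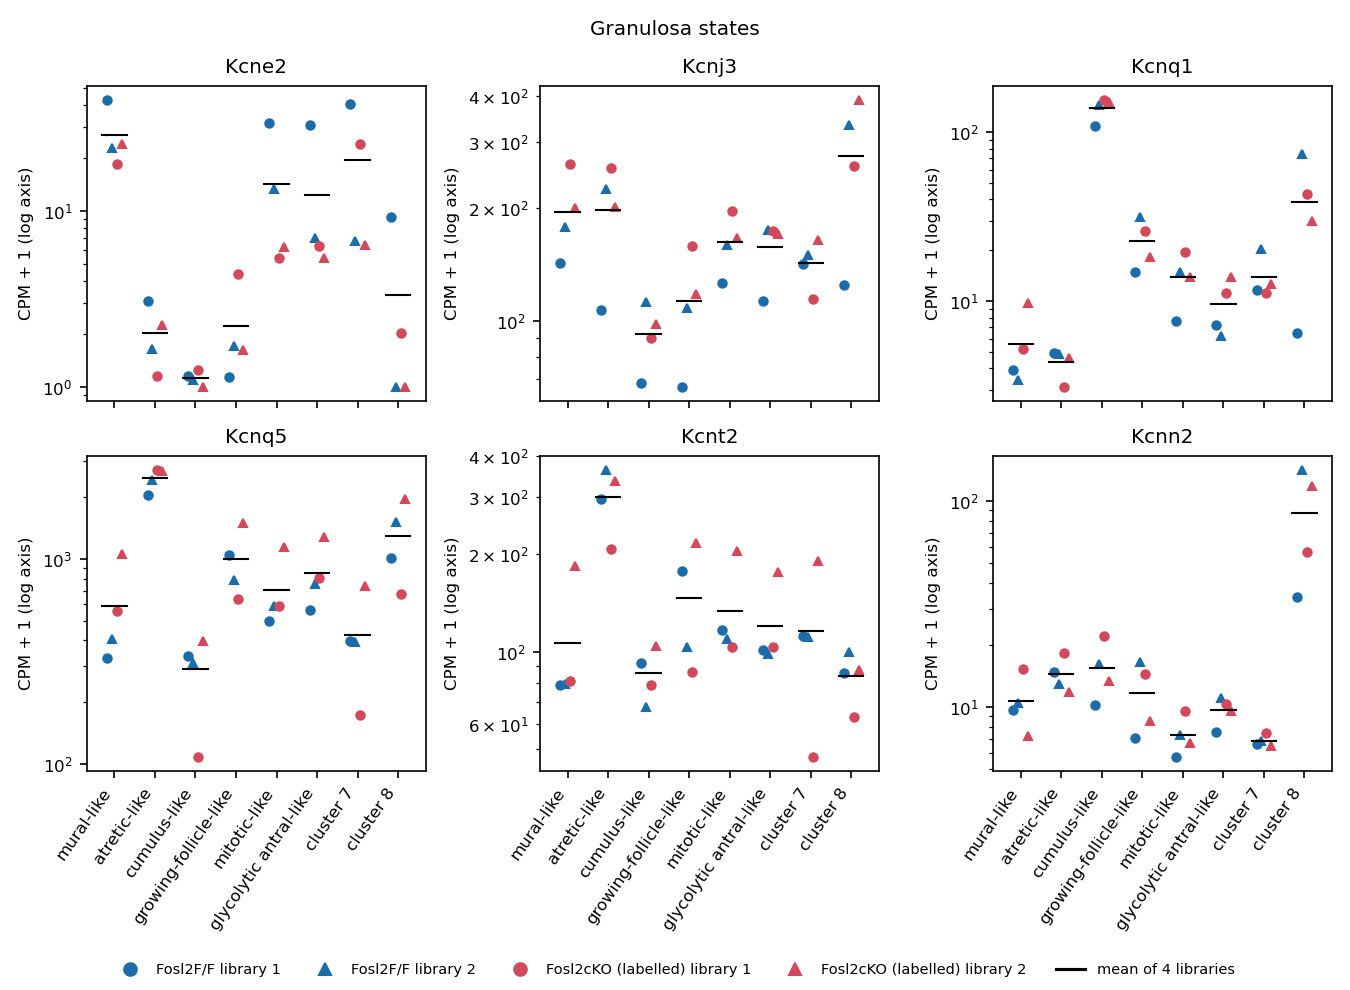
Levels of 6 members in the 8 granulosa groups, as CPM + 1 on a log axis, with circles and triangles for library 1 and library 2, blue for Fosl2F/F, red for libraries labelled Fosl2cKO, and a horizontal line for the mean of the 4 libraries. Kcne2 was highest in mural-like cells, Kcnq1 in cumulus-like cells and Kcnq5 and Kcnt2 in atretic-like cells, in libraries of both conditions.

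Over the 40 members tested between granulosa states, 15 were called higher and 2 lower in atretic-like cells, against 5.03% and 3.0% of all genes. In mural-like cells, 5 were called higher and 6 lower (3.51% and 3.73% of all genes), in cumulus-like cells 8 higher and 9 lower (8.95% and 7.21%), and in growing-follicle-like cells 2 higher and 4 lower (1.76% and 2.16%). Calls required an edgeR adjusted p under 0.05 and a log2 difference beyond 1 from the mean of the other states. Members that passed the filter on low counts only through the state in which they were high had to differ, so these counts describe the members tested and not all 69. States were defined from other genes of the same cells.

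Kcnj3 was measured in every granulosa state. The gene encodes the G protein-gated inward rectifier GIRK1 and measured 115, 152, 193 and 165 CPM in granulosa-like and 37.2, 27.6, 20.4 and 39.1 CPM in stromal-like cells, with no overlap (log2 2.30, SE 0.27, adjusted p = 2.3e-10, edgeR). Its means over the 6 named states ran from 91.3 CPM in cumulus-like to 197 CPM in atretic-like cells, beside 276 CPM in granulosa cluster 8, and none of the 4 state contrasts passed the call. Kcnj5, its usual partner subunit, did not exceed a mean of 3.73 CPM in any class. Kcnq5 likewise separated granulosa-like cells, at 752, 681, 784 and 1377 CPM, from stromal-like cells, at 49.4, 54.6, 32 and 55 CPM (log2 4.23, SE 0.31, adjusted p = 4.3e-17, edgeR).

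Stromal-like cells were instead higher than granulosa-like and theca-like cells in Kcnk2, and higher than theca-like cells in Kcnt2. Kcnk2, the stretch- and lipid-gated channel TREK1 (chr1:189207930-189402273), measured 183, 189, 182 and 339 CPM in stromal-like cells, 9.79, 9.20, 6.57 and 12.3 CPM in granulosa-like cells and 2.51, 3.76, 2.29 and 5.23 CPM in theca-like cells. Every stromal-like value was above every granulosa-like and theca-like value (granulosa-like minus stromal-like log2 -4.51, SE 0.22, adjusted p = 6.7e-24, theca-like minus stromal-like log2 -5.95, SE 0.25, adjusted p = 6.3e-26, edgeR). At 2000 UMIs per cell, 30.6% of stromal-like cells had a Kcnk2 UMI, against 0.483% of endothelial-like cells. Kcnt2 was measured at 802, 776, 574 and 992 CPM in stromal-like and 34.1, 25.9, 21 and 51.9 CPM in theca-like cells (log2 -4.53, SE 0.28, adjusted p = 3.2e-19, edgeR). Kcnmb2, a beta subunit that inactivates the Kcnma1 channel, was measured at 23.1, 36.1, 34.9 and 30.4 CPM in stromal-like and 1.48, 1.05, 0.501 and 0.496 CPM in granulosa-like cells (log2 -5.05, SE 0.38, adjusted p = 6.3e-16, edgeR), while Kcnma1 itself did not pass the call between them (log2 0.45, SE 0.36, adjusted p = 0.291). Kcnip3, a calcium sensor that binds Kv4 channels, was at 34.2, 31.1, 23.9 and 61.5 CPM in stromal-like and 30.5, 26, 40.9 and 60.3 CPM in cluster 1 cells, whose ranges overlapped.

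Clusters 1 and 16, for which no contrast was fitted, had Kcns2, a silent modifier of Kv2 channels, at levels not seen in stromal-like cells. Kcns2 measured 33, 22, 22.6 and 34.3 CPM in cluster 1, 22.6, 24.9, 27.5 and 29.1 CPM in cluster 16 and 0.906, 0.867, 0.975 and 1.01 CPM in stromal-like cells. All values of both clusters lay above all stromal-like values. Kcnk2 had the reverse order, at 19.5, 28.7, 30.8 and 40.0 CPM in cluster 1 and 7.26, 7.90, 14.4 and 13.8 CPM in cluster 16, below every stromal-like value. Kcnd3, a rapidly inactivating Kv4 channel, was measured at 118, 159, 213 and 188 CPM in cluster 1 and 51, 45.1, 44.8 and 69.2 CPM in stromal-like cells. Cluster 16 had cell cycle genes among its leading genes (Hmmr, Aurkb, Tpx2), beside which its Kcnd3 level was 85.4, 144, 165 and 144 CPM.

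Over 53 members tested between classes, 14 were called higher and 26 lower in granulosa-like than in stromal-like cells, against 14.1% and 19.1% of all genes. The median log2 difference of the members tested was -1.12, and that of all genes 0.03. In theca-like against stromal-like cells, 10 were higher and 16 lower (10.1% and 15.0% of all genes), with a median of -0.61 against -0.01. As between states, members that passed the filter on low counts only through the class in which they were high had to differ. Counts and medians of these and the later class contrasts therefore describe the members tested and not all members.

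Members of the theca-like class divided along its 2 clusters. Cluster 2, led by Abcb1b, Hao2 and Folr1, had the Kv4 channel Kcnd2 at 833, 1441, 837 and 2076 CPM, and cluster 9, led by Cyp17a1, had 96.4, 221, 138 and 112 CPM. Kcnip1, a Kv4-binding calcium sensor, had the reverse order, at 1.98, 2.66, 1.34 and 2.91 CPM in cluster 2 and 85.7, 132, 37.5 and 108 CPM in cluster 9. Neither gene overlapped between the clusters. Kcnip1 over the whole class was 44.9, 42.1, 6.65 and 49.3 CPM, beside 142 cells of cluster 9 among 902 theca-like cells in Fosl2cKO library 1, the lowest of the 4 libraries. The acid-sensitive tandem-pore channel Kcnk3 (TASK1) measured 36.5, 46.1, 119 and 68.6 CPM in theca-like and 4.08, 8.67, 9.10 and 7.63 CPM in stromal-like cells, without overlap (log2 3.18, SE 0.34, adjusted p = 5.2e-11, edgeR). Kcnh1, an ether-à-go-go channel, was measured at 20.7, 24.3, 41 and 24.7 CPM in theca-like and 1.81, 3.18, 0.650 and 1.35 CPM in stromal-like cells (log2 4.14, SE 0.38, adjusted p = 4.0e-13, edgeR).

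Luteal-like cells, the progesterone-producing cells that form after ovulation, were highest in Kcnab3 and Kcnma1. Kcnab3, a cytoplasmic beta subunit of Kv1 channels that overlaps the antisense transcript Kcnab3os, measured 201, 123, 58.4 and 77.7 CPM there, and the next class was theca-like with a mean of 23.9 CPM. Kcnma1 measured 1757, 1077, 672 and 291 CPM, and its range overlapped with that of granulosa-like cells, 245, 560.0, 567 and 369 CPM. The class held 2 clusters. Cluster 18, with Sfrp2 and Ptgfr among its leading genes, had 112, 344, 15 and 31 cells, and cluster 8, with Akr1c18 and Lhcgr, had 61, 899, 316 and 261 cells, so that the mix of the 2 clusters differed between libraries. Kcnq3, an M-current channel, was at 138, 190.4, 148 and 156 CPM in cluster 18 and 89.2, 14, 7.04 and 16.3 CPM in cluster 8. Kcnma1 measured 1798, 2940.4, 514 and 415 CPM in cluster 18 and 517, 608, 681 and 279 CPM in cluster 8, with overlapping ranges.

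Channel genes differed between pericyte or smooth muscle-like, blood endothelial-like and lymphatic endothelial-like cells. Pericyte or smooth muscle-like cluster 12, led by Rgs5 and Notch3, had Kcnj8, the pore subunit of the vascular ATP-sensitive channel, at 41.6, 68.7, 52.1 and 47.1 CPM, and cluster 14, led by Actg2, Cnn1 and Myh11, had it at 8.23, 5.71, 7.30 and 2.71 CPM. Whether cluster 14 belongs to vessels was not tested. Kcne4, an inhibitory single-pass subunit, was measured at 37.2, 29.7, 38.8 and 48.1 CPM in cluster 12 and 10.3, 22.8, 16.7 and 9.94 CPM in cluster 14. Kcnk1 measured 60.2, 69.2, 52.1 and 78.7 CPM in cluster 12 and 4.12, 3.08, 6.44 and 4.06 CPM in cluster 14. For these 3 genes, all cluster 12 values lay above all cluster 14 values. The reverse held for Kcnk2 (28.9, 10.4, 27.8 and 54.6 CPM against 170.1, 156, 155 and 332 CPM), for Kcnt2 (297, 301, 296 and 422 CPM against 972, 972, 795 and 1164 CPM) and for Kcnn2 (1.96, 2.47, 8.68 and 5.51 CPM against 47.3, 40.9, 48.9 and 46.1 CPM). Kcnmb1, the smooth muscle beta subunit of the Kcnma1 channel, which lies within Kcnip1 on the other strand, was present in both clusters, at 14.7, 15.3, 17.9 and 10.5 CPM and 22.6, 19.8, 17.2 and 9.94 CPM, against 1.91, 1.25, 0 and 0.407 CPM in endothelial-like cells.

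Whole-class contrasts with endothelial-like cells pooled both clusters. For Kcnj8, which was high in cluster 12 and low in cluster 14, the contrast does not describe cluster 14 alone. Pericyte or smooth muscle-like cells exceeded endothelial-like cells in Kcnj8 (log2 1.86, SE 0.35, adjusted p = 1.7e-05), Kcne4 (log2 3.20, SE 0.38, adjusted p = 2.2e-09), Kcnmb1 (log2 4.27, SE 0.51, adjusted p = 7.1e-09) and Kcnk2 (log2 5.33, SE 0.30, adjusted p = 4.4e-21) by edgeR. Of the members tested, 24 were called higher and 11 lower, against 14.8% and 11.3% of all genes, and the members' median log2 difference was 1.59 against 0.07 for all genes. Kcnab1, a Kv1 beta subunit, was among those higher (log2 4.63, SE 0.32, adjusted p = 1.2e-17). Abcc9, the sulfonylurea receptor that assembles with Kcnj8 and is no member by symbol, was higher too (log2 1.99, SE 0.25, adjusted p = 1.7e-09). Unlike the members, Abcc9 was not left out of the clustering and was among the leading genes of cluster 12, so its difference is not independent of the class.

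Endothelial-like cells had the strong inward rectifier Kcnj2 at 5.72, 12.8, 12.6 and 22 CPM, while the pericyte or smooth muscle-like clusters were near 0, at 0, 0, 0.579 and 0 CPM and 0, 0.439, 0 and 0 CPM. Kcnq1 in endothelial-like cells was 57.2, 94.2, 83.4 and 132 CPM, against 1.13, 1.59, 1.41 and 1.23 CPM in stromal-like cells. The Kv1 channel Kcna5 measured 17.2, 12.5, 28.7 and 21.6 CPM, and its range overlapped with that of cluster 12, 2.45, 5.93, 19.1 and 3.01 CPM. The single-pass subunit Kcne3 measured 4.77, 12.8, 36.7 and 15.1 CPM, the 4 libraries spanning several-fold. All 4 genes were lower in pericyte or smooth muscle-like cells by edgeR (Kcnj2 log2 -6.50, SE 0.67, adjusted p = 4.7e-11, Kcnq1 log2 -5.62, SE 0.40, adjusted p = 2.4e-17, Kcna5 log2 -2.44, SE 0.48, adjusted p = 4.2e-05, Kcne3 log2 -3.88, SE 0.50, adjusted p = 8.4e-09). Compared with stromal-like cells, 10 of 53 members were called higher and 23 lower in endothelial-like cells, against 12.9% and 15.8% of all genes.

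Lymphatic endothelial-like cells were set apart by Kcnn3, a small-conductance calcium-activated channel at chr3:89520164-89675132. It measured 151, 133, 94 and 145 CPM there and 9.53, 8.52, 7.16 and 2.44 CPM in blood endothelial-like cells, the next class, which was 18.9 times lower by the means. At 2000 UMIs per cell, 24.1% of lymphatic endothelial-like cells had a Kcnn3 UMI and 0.711% of stromal-like cells.

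**Figure D3:**
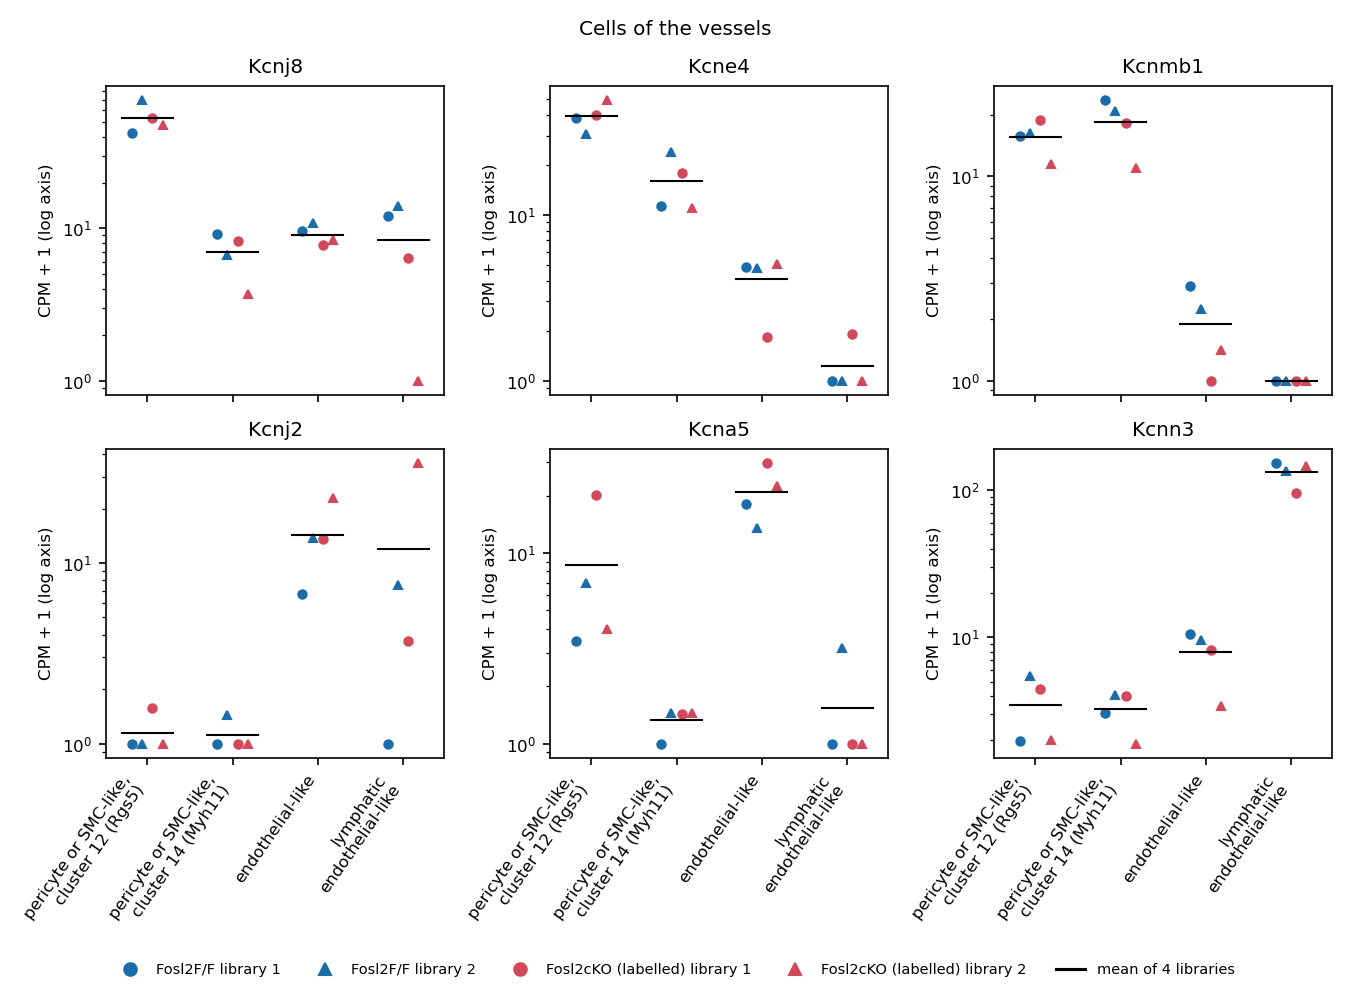
Levels of 6 members in pericyte or smooth muscle-like (SMC) clusters 12 and 14, endothelial-like and lymphatic endothelial-like cells, as CPM + 1 on a log axis, with one point per library and a line for the mean of 4 libraries. Kcnj8 and Kcne4 were highest in cluster 12, Kcnmb1 was present in both contractile clusters, and Kcnn3 stood at 94.0 CPM or more in lymphatic endothelial-like cells.

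Epithelial-like cells, which carry keratin markers of the ovarian surface, were the highest class for 5 of the members that reached 20 CPM. Kcnf1, a silent modifier of Kv2 channels, measured 44.1, 32.7, 41.7 and 34.6 CPM, and no other class had a mean above 0.487 CPM. Its pore-forming partner type Kcnb2 measured 339, 454, 403 and 464 CPM, against 55.2, 23.2, 129 and 78.2 CPM in oocyte-like cells, the next class. The alkaline-activated tandem-pore channel Kcnk5 (TASK2) measured 78.8, 136, 145 and 111 CPM, and Kcnd2 1664, 2399, 1925 and 1835 CPM. For Kcnf1, Kcnb2, Kcnk5 and Kcnd2 the epithelial-like values were above the values of the next class in every library. For Kcnd2 that class was theca-like with its clusters pooled. Theca-like cluster 2 taken alone, with the values given above, exceeded epithelial-like cells in Fosl2cKO library 2. The fifth, Kcnab1, measured 471, 603, 622 and 549 CPM in epithelial-like and 484, 498, 475 and 499 CPM in pericyte or smooth muscle-like cells, with overlapping ranges.

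Among immune classes, macrophage-like cells were highest in Kcnk13, a tandem-pore channel of myeloid cells, at 94.1, 109, 77 and 127 CPM. Dendritic-like cells followed among immune cells at 31.5, 13.6, 16.4 and 22.9 CPM, without overlap. At 2000 UMIs per cell, 17.4% of macrophage-like and 0.347% of stromal-like cells had a Kcnk13 UMI. Kcnn4, the intermediate-conductance calcium-activated channel of leukocytes, was shared by dendritic-like (49.8, 40.9, 32.8 and 41.5 CPM), macrophage-like (56.9, 15.3, 19.5 and 23.3 CPM) and NK or T-like cells (30.7, 18, 25.3 and 13.2 CPM), and was near 0 in granulosa-like cells, at 0.0981, 0.0523, 0.0200 and 0.0207 CPM. The macrophage-like range of Kcnn4 overlapped with both others, and every dendritic-like value lay above every NK or T-like value. Kcnab2, a Kv beta subunit, measured 28.1, 25.7, 37 and 48.9 CPM in NK or T-like cells. Kcnq5 reached 599, 587, 469.6 and 680.4 CPM in NK or T-like and 940.1, 771, 490.1 and 765 CPM in B lymphocyte-like cells, against 18.3, 27.5, 12.8 and 16.1 CPM in macrophage-like cells. Among the members at 20 CPM, Kcnh4 was the 1 with its highest mean in B lymphocyte-like cells, 21.1 CPM, which rested on 6 UMIs in 148 cells.

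Oocyte-like cells (209 cells, 20 to 132 per library) were highest in the ether-à-go-go channels Kcnh1, at 79.8, 109, 75.5 and 82.6 CPM, and Kcnh3, at 6.14, 44.6, 32.3 and 39.1 CPM. The 4 Kcnh1 values lay close together, and Kcnh3 was low in Fosl2F/F library 1. Kcnip4 had a mean of 38.5 CPM that 1 library decided, at 6.14, 139, 0 and 8.69 CPM. The stromal, theca, endothelial and dendritic classes and clusters 1 and 16 had no member that reached 20 CPM and was at least 2 times higher than in every other class.

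Genes of potassium transport outside the 2 symbol families were read beside the members, in a list of 28 genes that held sulfonylurea receptors, Kv4 and large-conductance channel auxiliaries, sodium pump subunits, cation-chloride cotransporters and intracellular potassium channels. Unlike the members, these genes were not left out of the clustering, so their calls between classes and states are not independent of how these were defined. Of 22 tested between classes, 4 were called higher and 8 lower in granulosa-like than in stromal-like cells (14.1% and 19.1% of all genes). In theca-like against stromal-like cells 4 and 7 were called (10.1% and 15.0%), in pericyte or smooth muscle-like against endothelial-like cells 10 and 5 (14.8% and 11.3%), and in endothelial-like against stromal-like cells 4 and 7 (12.9% and 15.8%). Of 21 list genes tested between granulosa states, 2 were called higher and 0 lower in mural-like cells (3.51% and 3.73% of all genes), 3 and 0 in atretic-like cells (5.03% and 3.0%), 1 and 1 in growing-follicle-like cells (1.76% and 2.16%), and 3 and 1 in cumulus-like cells (8.95% and 7.21%). Dpp10, a Kv4 auxiliary, was called in all 4 of these contrasts. It was higher in mural-like cells (log2 2.92, SE 0.35, adjusted p = 1.4e-07) and atretic-like cells (log2 2.32, SE 0.41, adjusted p = 4.0e-05) and lower in cumulus-like cells (log2 -2.75, SE 0.67, adjusted p = 8.8e-04) and growing-follicle-like cells (log2 -2.01, SE 0.68, adjusted p = 0.0276) by edgeR.

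Between conditions, no member passed the call in any class or state. Changes are given as Fosl2cKO minus Fosl2F/F on the log2 scale, with p-values adjusted by Benjamini-Hochberg over all genes tested in the class. In 23 classes and states, 587 pairs of a member and a class were tested, and 0 reached an adjusted p under 0.1 with a log2 change beyond 0.25 by the edgeR quasi-likelihood test, against 0.127% of all gene and class pairs (321 of 252085). By class, this share over all genes ran from 0.0% in dendritic-like to 5.31% in B lymphocyte-like cells, in which 1 member was tested. At an unadjusted p under 0.05 there were 77 member pairs and 5.63% of all pairs (14194). DESeq2 called 10 member pairs and 0.611% of all pairs. Among pairs with a mean of at least 20 CPM, the Fosl2F/F and Fosl2cKO libraries did not overlap in 71 of 230 member pairs (30.9%) and in 34.4% of all gene and class pairs (55011 of 160092), so that a gap between groups is given below as a description of the values only. None of the 350 pairs with a gene of the transport list was called by edgeR. The difference of the condition effect between granulosa-like and stromal-like cells was called for 0 of 63 members, and for 0.0% of 17609 genes, with 6 members and 560 genes at an unadjusted p under 0.05. Among them were Kcnq3 (log2 -2.12, SE 0.40), Kcnmb2 (log2 -1.55, SE 0.42), Kcnd2 (log2 -0.72, SE 0.22) and Kcnk2 (log2 -0.52, SE 0.20), with the lower change in granulosa-like cells, and Kcnq5 (log2 0.82, SE 0.22), with the higher change in granulosa-like cells.

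Luteal-like cells had the most members at an unadjusted p under 0.05, 13 of 34 against 10.9% of all genes tested in that class. Kcnq5 was 27.1 and 26.7 CPM in Fosl2F/F and 66.1 and 74 CPM in Fosl2cKO libraries (log2 1.25, SE 0.27, unadjusted p = 0.00315, adjusted p = 0.267, edgeR). Kcnab3 was 201 and 123 CPM and 58.4 and 77.7 CPM (log2 -1.38, SE 0.36, unadjusted p = 0.00798, adjusted p = 0.319). Neither pair of groups overlapped, and the luteal cluster mix differed between the same libraries, cluster 18 holding 112 of 173 and 344 of 1243 cells in Fosl2F/F and 15 of 331 and 31 of 292 cells in Fosl2cKO libraries. Within cluster 8 alone, the log2 change was 1.06 for Kcnq5 and -1.75 for Kcnab3, with 0 members and 0.0161% of all genes called (adjusted p = 0.945 and 0.834 by edgeR). For Kcnma1, 1757 and 1077 CPM against 672 and 291 CPM over the class, the log2 change of -1.68 became -0.32 within cluster 8. Within cluster 18 Kcnma1 was 1798 and 2940.4 CPM and 514 and 415 CPM, without overlap, and was not tested because 1 library had fewer than 20 cells there. For Kcna4 the 4 values were 12, 7.77, 0 and 0.158 CPM (log2 -6.86, SE 0.92, unadjusted p = 2.4e-04, adjusted p = 0.206, edgeR), a fitted change that rests on 0 and 1 UMIs in the Fosl2cKO libraries. For this gene 42 of 42 and 125 of 126 UMIs in the Fosl2F/F libraries came from cluster 18, in which the Fosl2cKO libraries had 15 and 31 cells and 0 Kcna4 UMIs. The 1 Kcna4 UMI of Fosl2cKO library 2 was in cluster 8.

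Granulosa states gave no called member by condition. In mural-like cells, Kcnq5 was 326 and 403 CPM in Fosl2F/F and 558 and 1053 CPM in Fosl2cKO libraries (log2 1.09, SE 0.32, unadjusted p = 0.00919, adjusted p = 0.671, edgeR), and Kcnj3 was 142 and 177 CPM and 262 and 199.6 CPM (log2 0.48, SE 0.22, unadjusted p = 0.0646, adjusted p = 0.955). Both groups were separated for these genes, by a gap smaller than the distance between the Fosl2cKO libraries. Kcne2 overlapped in mural-like cells and did not overlap in mitotic-like cells, at 30.9 and 12.4 CPM and 4.41 and 5.22 CPM (log2 -2.21, SE 0.43, unadjusted p = 0.00114, adjusted p = 0.283, edgeR). Under a block on the replicate number Kcne2 in mitotic-like cells was called, at log2 -2.07 with adjusted p = 0.053. Finer clustering of all cells divided the granulosa-like cells led by cell cycle genes. A cluster with Inhba, Cyp19a1 and Grem1 among its leading genes had 348, 500, 153 and 181 cells. Another, with Amh, had 443, 695, 369 and 362 cells. The part of this mix in the Kcne2 difference was not tested. Kcnmb2 in atretic-like cells rested on 75, 9, 3 and 2 UMIs, at 6.23, 2.89, 0.486 and 0.227 CPM (log2 -3.86, SE 0.71, adjusted p = 0.591, edgeR), and in stromal-like cells its change was log2 0.12.

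Outside granulosa and luteal cells, where Cre was not directed, Kcnk3 in theca-like cells was 36.5 and 46.1 CPM in Fosl2F/F and 119 and 68.6 CPM in Fosl2cKO libraries (log2 1.16, SE 0.32, unadjusted p = 0.00515, adjusted p = 0.786, edgeR). The order held in each theca-like cluster, with log2 0.98 in cluster 2 and 1.13 in cluster 9. Kcnk3 was at the same time highest in Fosl2cKO library 1 in granulosa-like cells, at 1.58, 4.11, 16.6 and 2.07 CPM, and the part of released RNA in this was not tested. Kcnd2 was 139 and 66.9 CPM and 66.8 and 23.8 CPM in NK or T-like cells (log2 -1.25, SE 0.41, unadjusted p = 0.00886, adjusted p = 0.313), where the groups met within 0.1 CPM. Under a block on the replicate number this pair was called, at log2 -1.27 with adjusted p = 0.054. In lymphatic endothelial-like cells it was 40.6 and 54.6 CPM and 12.7 and 5.80 CPM (log2 -2.09, SE 0.56, unadjusted p = 0.00208, adjusted p = 0.386), from 11, 25, 14 and 1 UMIs. Kcnd2 was high in epithelial-like and theca-like cells of every library, and its part as released RNA in the lymphocyte and endothelial values was not tested.

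Further members had groups that did not overlap. Kcnd3 in granulosa cluster 8 was 11 and 14.8 CPM and 33 and 46.3 CPM (log2 1.54, SE 0.51, unadjusted p = 0.0113, adjusted p = 0.999, edgeR), from 4 to 32 UMIs per library. Kcnip3 in cluster 1 was 30.5 and 26 CPM and 40.9 and 60.3 CPM (log2 0.74, SE 0.27, unadjusted p = 0.0182, adjusted p = 0.886). Kcnk2 in pericyte or smooth muscle-like cells was 87.6 and 87.7 CPM and 101 and 201 CPM (log2 0.73, SE 0.32, unadjusted p = 0.0392, adjusted p = 0.98). Within each pericyte or smooth muscle-like cluster taken alone, with the values given above, the Kcnk2 groups overlapped. Of the pairs without overlap at 20 CPM, 37 were taken as named pairs (at most 2 per class by p), and none of these had an adjusted p under 0.267. Kcnq5 was named in 7 of these classes or states, with log2 changes from -0.56 in B lymphocyte-like to 1.25 in luteal-like cells. Kcnd2 was named in 5, each time lower in the Fosl2cKO libraries, with log2 changes from -2.09 to -0.55. The libraries compared are the same in every class, so these are not independent observations.

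**Figure D4:**
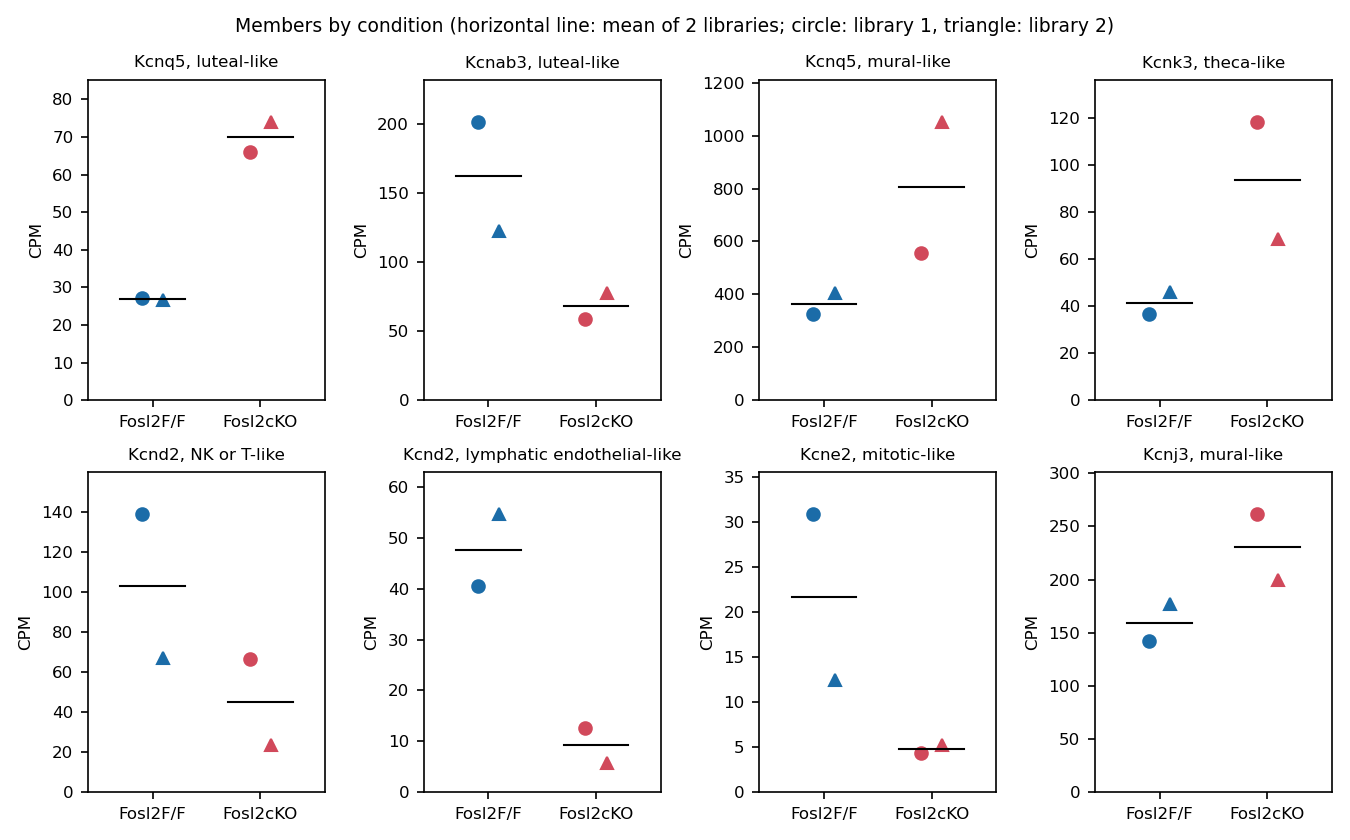
CPM of members by condition in single classes, on linear axes that start at 0, with circles for library 1, triangles for library 2 and a horizontal line for the mean of 2 libraries. Groups did not overlap for Kcnq5, Kcnab3, Kcnk3, Kcnd2, Kcne2 and Kcnj3 in the classes shown, and no difference passed the call.

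Fosl2 belongs to the AP-1 family, whose sites have the letters TGACTCA or, read on the other strand, TGAGTCA. These letters were searched on both strands of RefSeq promoters (GRCm38.p6, 250 bases before to 50 bases after a transcript start), which matched 50 members with 74 promoters. They were found in 2.70% of member promoters (2 of 74) and in 5.20% of all promoters (1709 of 32851). The 2 matches are shown with 10 bases on each side and the letters in capitals, since the levels of both genes are described above.
Kcnk2: catcctccccTGACTCAgtcatacagt
Kcnip3: gctaattggcTGACTCAataaaaaggg
The Kcnk2 match lies at chr1:189344302-189344328 on the minus strand, 126 bases before a start that is inside the gene's annotated span, and the Kcnip3 match at chr2:127522200-127522226, also on the minus strand, 122 bases before the start. Both genes were low in granulosa-like cells, and no condition difference of either passed the call there. A match describes these letters only.

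Counts of the members also followed the length of their genes. The span from the first to the last annotated base had a median of 41.8 kb over the 69 members, against 24.6 kb over 15358 protein-coding genes with at least 100 UMIs. Spearman's rho between span and total UMIs was 0.64 over the members and 0.19 over those protein-coding genes, across genes that are not independent replicates and share the same libraries. Kcnq5 (563.5 kb) and Kcnma1 (725.1 kb) were among the long genes with many UMIs, Kcne2 (5.741 kb) and Kcnab3 (6.785 kb) among the short ones, and Kcnip4 spanned 1135 kb with 5160 UMIs. Whether reads in introns were counted is not given in the sources used here, and its part in these totals was not tested. Levels are therefore compared for a gene between classes, and levels of different genes were not tested against each other. The counts of members and families at 20 CPM set genes of different length against the same level. The part of gene length in these counts was not tested.

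**Figure D5:**
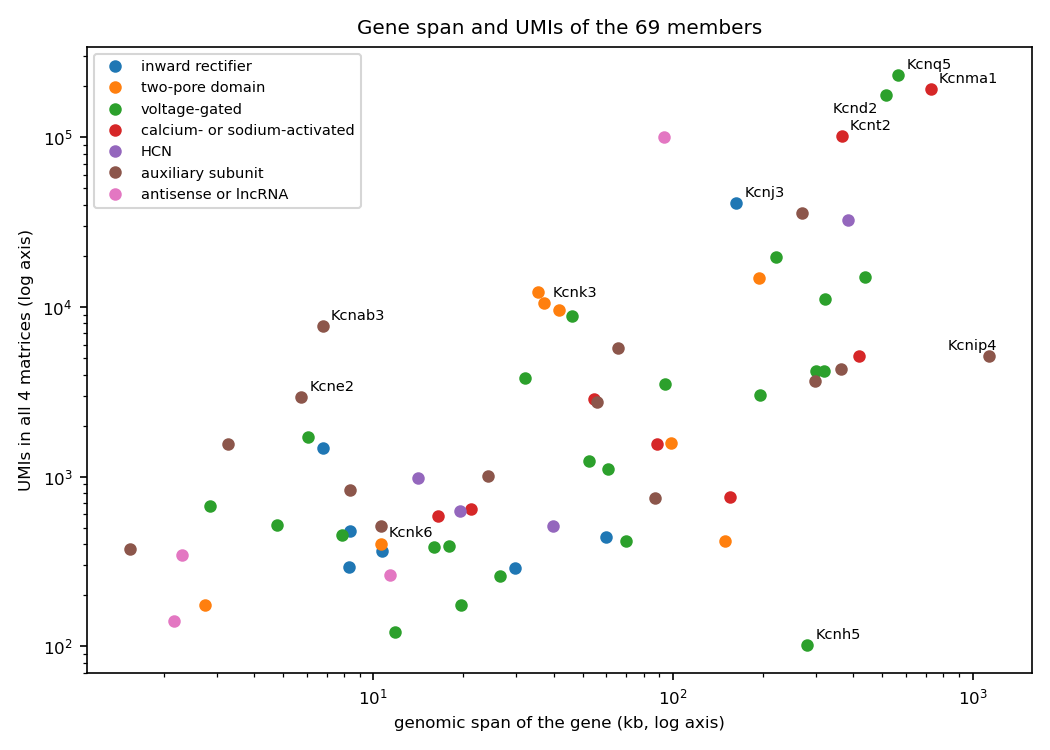
Total UMIs over the 4 matrices against the genomic span of each of the 69 members in kilobases, both on log axes, coloured by family. Long genes such as Kcnq5, Kcnma1 and Kcnd2 lie at the top right, and Spearman's rho over the members was 0.64.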

How the data were processed

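Ovarian single-cell libraries (2 labelled Fosl2F/F, 2 labelled Fosl2cKO) were read from the deposited matrices of raw UMI counts, which the authors made with Cell Ranger on GRCm38. The version of Cell Ranger differs between the file header and the methods, whether introns were counted is not given in the sources used here, and it is unclear whether the background removal named in the methods had been applied.

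Barcodes were dropped below 500 genes, at 1000 UMIs or fewer, or from 10% mitochondrial or 0.1% haemoglobin UMIs upward, and doublets were removed by Scrublet score at 0.8% per 1000 cells of a library. SCTransform, anchor integration on 3000 features without the channel genes, 30 dimensions and Louvain clustering (resolution 0.8 for all cells, 0.5 for granulosa-like cells) followed in Seurat 5.3.0. Clusters were named from marker lists. UMI counts were summed per class and library and tested with edgeR 4.0.16 (quasi-likelihood, TMM, filterByExpr, Benjamini-Hochberg over all genes tested, at least 20 cells of the class in every library). Condition was the only term within a class, and library was a block between classes and states. Calls between conditions required an adjusted p under 0.1 and an absolute log2 change over 0.25, and calls between classes an adjusted p under 0.05 and an absolute log2 difference over 1. The tests were tried on simulated counts with known changes first. Shares of cells were computed after thinning each cell to 2000 UMIs, which left out 503, 3970, 289 and 298 cells. They and the levels carry counting error beside the spread between libraries.

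Members were named where their mean was at least 20 CPM in a class and at least 2 times that in every other class (up to 3 per class, epithelial-like Kcnd2 being the 4th and named after its values were seen), or, for the condition, where groups did not overlap (up to 2 per class), with Hcn2 to Hcn4, Kcne2 and Kcnmb2 besides. Members named in single clusters, and Kcnj2, Kcna5, Kcne3, Kcnk1, Kcnn4, Kcns2, Kcnq1 in endothelium and Kcnq5 in lymphocytes, were chosen after their values were seen. The members and lists were chosen with earlier results of these data known. Some genes are counted among them but not reported here by name. Alternatives were DESeq2 1.42.0, no gene filter, replicate blocks, stricter cell filters, more doublets removed, finer clusters and leaving out each library.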

Additional observations from a re-analysis of the deposited data

How the results depend on the processing

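The condition result for the members rested on the test, since 0 of 587 member and class pairs were called by edgeR with the filter on low counts, 10 by DESeq2, 48 without a gene filter, 1 with 2 times as many doublets removed and 6 to 29 when 1 library was left out. The shares of all gene and class pairs called were 0.127% by edgeR with that filter, 0.611% by DESeq2, 1.26% without a gene filter, 0.0859% with more doublets removed and 0.165% to 1.16% with 1 library left out, against 1.7%, 3.42%, 0.193% and 0.913% to 4.5% of member pairs under these 4 alternatives. Where that leaves 1 library in a group, it is assumed to vary like the other group. The replicate numbers of the labels were not taken to pair libraries, because nothing says that a number marks a shared animal or batch and deviations from the group means correlated by only -0.17 to 0.07 over the classes. With a replicate block 2 pairs and 0.223% of all pairs were called (Kcnd2 in NK or T-like and Kcne2 in mitotic-like cells), and with the crossed replicate block, which was chosen after seeing the data, 23 and 1.54%. For the transport list, 0 pairs became 3 with DESeq2, 15 without a gene filter, 4 with the crossed block and 1 to 8 with 1 library left out. The interaction gave 2 of 69 members without a gene filter and 0 to 2 with 1 library left out, against 0.467% and 0.0% to 0.375% of all genes. DESeq2 called Kcnq5, Kcnj3, Kcna4, Kcnd3, Kcnab3, Kcnma1 and Kcnq3 in luteal-like cells, where the cluster mix differed, and 3 members elsewhere. Between classes, members higher in theca-like than stromal-like cells were 17 of 69 without a gene filter (7.06% of all genes) against 10 of 53 (10.1%). Between states, 3 to 7 of 39 to 42 members were higher in mural-like cells with 1 library left out (2.88% to 3.99% of all genes) against 5 of 40, and those lower in atretic-like cells were 1 with over 2000 UMIs per cell, finer clusters or no replicate block (2.86%, 3.42% and 2.62% of all genes), and 1 to 2 with 1 library left out (2.48% to 3.03%), against 2. In growing-follicle-like cells 4 of 38 were higher with finer clusters (4.25%) and 1 to 3 with 1 library left out (1.32% to 1.99%) against 2, and 1 was lower with no replicate block (1.39%) and 2 to 4 with 1 library left out (1.34% to 2.0%) against 4. Finer clusters also moved cells between the cumulus-like and growing-follicle-like states, and the cause of the other shifts was not tested. The log2 change of Kcnt2 in glycolytic antral-like cells turned from 0.43 to -0.028 without Fosl2cKO library 2, and was 0.77 without Fosl2cKO library 1. The other summary values stayed within 1.5 times (149 settings, against 31 that moved). With 2 libraries a group, an exact permutation test could not go below p = 0.333, and depth limits the small classes most.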
